A study of Danio rerio with 6 samples.

Results

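The FZNFs g336 and g495 are 2 of the 684 FiNZ zinc finger gene models counted in zebrafish embryos at shield stage. They were chosen by their counts in these libraries, as FZNFs that were lower after injection of the FZNF morpholino (MO) than after the scrambled MO, whereas most FZNFs moved the other way. All values of g336 and g495 in this contrast are therefore given as a description, with no test. FZNF MO embryos were Tübingen zebrafish injected as zygotes with 4.5 ng of an oligonucleotide designed to block translation of most, but not all, FZNF transcripts. Scrambled MO embryos were of the same strain and received 4.5 ng of a randomized mixture of oligonucleotides. Pooled whole embryos were collected at 6 hours after fertilization from 3 pairs of injections, giving 3 libraries per group. Pairs 1 and 2 were collected on 12 May and pair 3 on 17 May. The 684 FZNFs stood among 35218 counted features, which also included Ensembl genes and transposable element (TE) families.

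FZNFs carry a conserved N-terminal domain, FiNZ, followed by an array of C2H2 zinc fingers, the modules with which such proteins contact DNA. The family is restricted to cyprinid fish and lies mostly on the long arm of zebrafish chromosome 4, where many of its genes are close copies of each other. It expanded in parallel with the KRAB zinc finger genes of tetrapods, many of which repress TEs. No role is known here for g336 or g495 individually. A translation-blocking MO base-pairs with the transcript around its start codon and hinders translation, so a transcript count neither measures the loss of protein nor shows whether a given FZNF was targeted. Whether g336 and g495 carry the MO's target sequence was not analysed here.

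Libraries held from 16306069 to 20567549 counts, and FZNFs took between 0.713% and 1.21% of them with the FZNF MO, against 0.476% to 0.554% with the scrambled MO. All 12 transcripts listed to check the stage and tissue were detected in all 6 libraries. They included tbxta and noto of the mesoderm and notochord, chrd and gsc of the organizer, eve1, vox and szl of the ventral side, sox32 and sox17 of the endoderm, krt4 of the enveloping layer, and pou5f3 and sox3. Their summed level ran from 6310 to 7798 counts per 1000000 (CPM) with the FZNF MO and from 6102 to 6466 CPM with the scrambled MO. Of the 12, pou5f3, a maternal and zygotic pluripotency factor, was higher at 1304 ± 391 CPM with the FZNF MO than at 823 ± 102 CPM with the scrambled MO (SD, n = 3 each, edgeR log2 fold change 0.63, adjusted p = 0.0206). The Bmp feedback inhibitor szl was also higher (log2 fold change 0.61, adjusted p = 0.0333), and the other 10 did not pass. Whether these shifts have a part in the values of g336 and g495 was not tested. In such bulk samples, fewer cells of a type and less RNA per cell cannot be told apart.

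With the FZNF MO, g336 had 0, 3 and 21 counts in pairs 1, 2 and 3, against 42, 131 and 106 counts in the scrambled MO libraries of the same pairs. Even the highest FZNF MO library lay below the lowest scrambled MO library, so the groups did not overlap. After TMM scaling, which corrects for library size and composition, these counts corresponded to 0.483 ± 0.680 CPM with the FZNF MO and 5.12 ± 2.38 CPM with the scrambled MO (SD, n = 3 each). The mean level with the FZNF MO was 9.43% of that with the scrambled MO. Its mean level ranked 518th of 684 FZNFs in the FZNF MO libraries, among the lowly expressed members, and 259th in the scrambled MO libraries.

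The size of the difference in g336 varied between pairs of injections. In pair 1 no read was counted with the FZNF MO. The exact Poisson 95% interval of this count of 0 reached 3.69 counts. With 3 counts taken as the floor, the level was 0.145 CPM in that library, beside 2.41 CPM in its scrambled MO partner. In pair 2 the FZNF MO level was 2.72% of the scrambled MO level, with an exact conditional binomial 95% interval from 0.554% to 8.14%. In pair 3 it was 20.8%, with an interval from 12.3% to 33.4%. The interval of pair 3 lay wholly above those of pairs 1 and 2, the first of which reached up to 7.72%. These intervals cover counting error only, and pair 3 was also the pair collected on the later day, so that pair and day cannot be told apart.

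For g495, the FZNF MO libraries had 8, 6 and 18 counts in pairs 1, 2 and 3, against 79, 166 and 156 counts in the scrambled MO libraries. The groups were again separate, and here every FZNF MO library held some reads. The level was 0.614 ± 0.404 CPM with the FZNF MO and 7.40 ± 2.48 CPM with the scrambled MO (SD, n = 3 each), so that 8.30% of the scrambled MO level was seen. Mean levels of g495 ranked 509th of 684 FZNFs with the FZNF MO and 210th with the scrambled MO.

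By pair, g495 had 8.52% of the scrambled MO level in pair 1 (95% interval 3.55% to 17.6%), 4.30% in pair 2 (1.56% to 9.56%) and 12.1% in pair 3 (6.98% to 19.7%). The smallest difference was again in pair 3, but the 3 intervals overlapped. In the scrambled MO libraries, both genes were lowest in pair 1, at 2.41 CPM for g336 and 4.53 CPM for g495, against 6.07 CPM or more and 8.72 CPM or more in the other 2 pairs. The control level of each gene thus differed between injections, and every FZNF MO library stayed below the lowest of them.

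**Figure D1:**
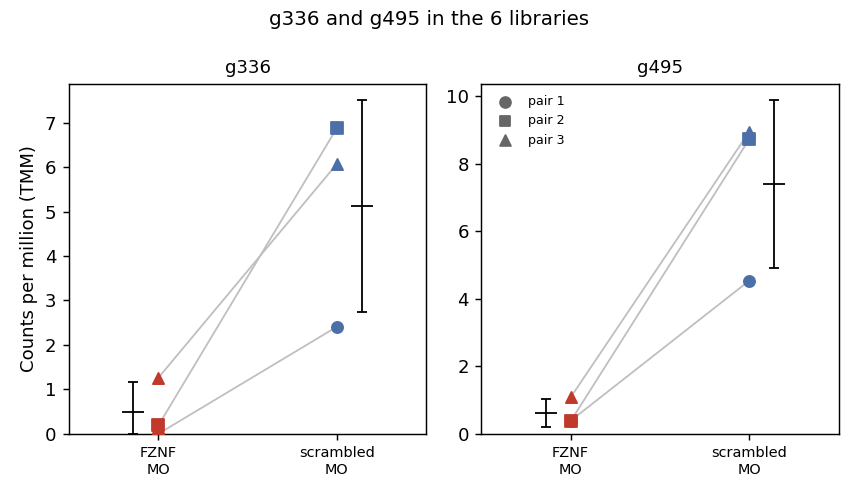
Levels of g336 and g495 in CPM after TMM scaling in each FZNF MO and scrambled MO library. Symbols mark the 3 pairs of injections, grey lines join the libraries of a pair, and black bars give the mean ± SD of 3 libraries, cut at 0; for both genes all 3 FZNF MO libraries lie below all 3 scrambled MO libraries.

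Both genes were a minor part of the family's output. Together they held 8, 9 and 39 counts in FZNF MO pairs 1, 2 and 3, and 121, 297 and 262 counts in scrambled MO pairs 1, 2 and 3. That was 0.00545%, 0.00539% and 0.0192% of all FZNF counts with the FZNF MO, against 0.149%, 0.308% and 0.272% with the scrambled MO. The summed counts of all FZNFs, by which these shares are divided, were themselves higher with the FZNF MO in each pair.

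Differences across the family were fitted in edgeR with the pair of injections as a block, and a gene was called where the adjusted p was under 0.05 and the log2 fold change was 0.32 or more in size. Of the 684 FZNFs, 518 passed the filter on low counts. The filter looked for 3 libraries above a minimum, and g336 and g495 each reached it in 3 of 3 scrambled MO libraries and only 1 of 3 FZNF MO libraries. They therefore passed through the group in which they were high. Among the 518, 25 were called lower with the FZNF MO (4.83%) and 160 higher (30.9%), against 2.18% lower and 3.27% higher among all 17804 tested features. Both g336 and g495 are among the 25, which repeats how they were chosen and supports nothing. The fitted log2 fold change was positive in 359 of the other 516 FZNFs, and the median over the 518 was 0.62, against -0.01 over all tested features.

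In this fit g336 had the lowest log2 fold change of the 518 FZNFs, at -3.91, and g495 the second lowest, at -3.63. The next 3 were g253 at -3.13, g216 at -3.07 and g447 at -2.85, and 19 FZNFs in all were below -2. These ranks depended on the filter and the pairs, since g336 and g495 were 7th and 9th lowest of 653 FZNFs with no count filter, and 2nd and 3rd lowest without pair 2. At the other end, g409 had 1307, 815 and 942 counts with the FZNF MO, against 2, 10 and 13 counts with the scrambled MO (log2 fold change 6.92, edgeR adjusted p = 6.42e-07). The FZNF g313 had 77, 27 and 50 counts with the FZNF MO and none in the 3 scrambled MO libraries, which makes it at least 16.8-fold higher when 3 counts per scrambled MO library are taken as the floor. Both g409 and g313 were picked for high values in these same data. They passed the filter through the FZNF MO libraries, where they were high, so the adjusted p of g409 adds no support. The order at the bottom varied with the pair. The log2 pair ratios (prior count 2) of g336 ranked 2nd lowest in pair 1, lowest in pair 2 and 3rd lowest in pair 3, while those of g495 ranked 15th, 2nd and 1st.

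**Figure D2:**
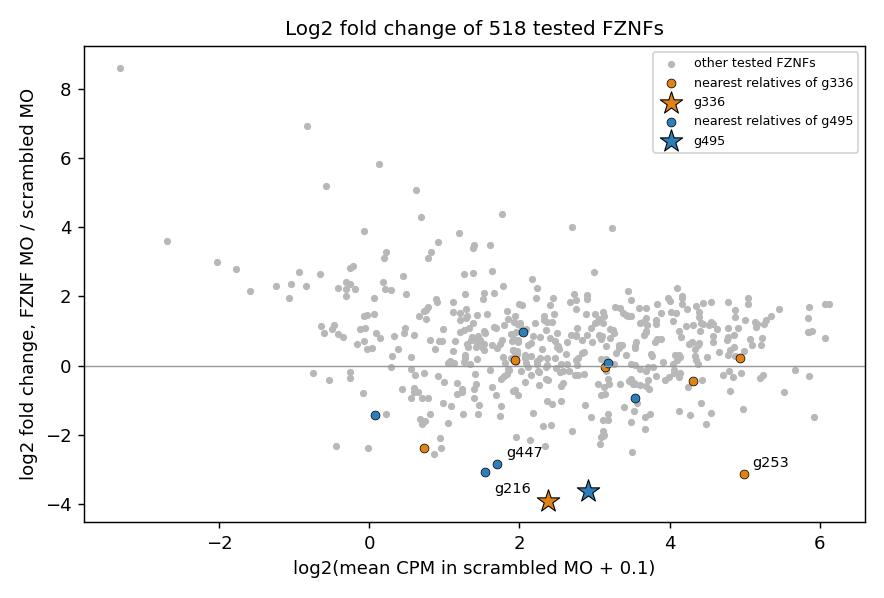
Log2 fold change (FZNF MO over scrambled MO) of the 518 tested FZNFs against log2 of their mean scrambled MO level in CPM plus 0.1. Stars are g336 (-3.91) and g495 (-3.63), coloured points their tested relatives on the neighbour-joining tree and grey points the other FZNFs, most of which lie above 0; g253, g216 and g447 are the 3 named points next above the stars.

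Groups that did not overlap, with the FZNF MO lower, were found among FZNFs at about the share of other features. All 3 FZNF MO levels lay below all 3 scrambled MO levels in 39 of the 518 tested FZNFs (7.53%), which is close to the 8.47% over all tested features, while 178 FZNFs (34.4%) had all 3 FZNF MO levels above, against 8.47% of all tested features in that direction too. Of the 39, 33 had a mean of at least 20 counts, and the 8 of these with the lowest log2 fold changes after g336 and g495 were g253, g216, g447, g362, g502, g481, g341 and g535. All 8 were called lower, but they were picked for low values in these same data. Their calls and adjusted p therefore add no support. The FZNF g362 had 17, 49 and 41 counts with the FZNF MO, against 249, 161 and 191 counts with the scrambled MO, and its log2 fold change was -2.49 (edgeR adjusted p = 0.0070). At g502 there were 15, 9 and 33 counts with the FZNF MO, against 77, 86 and 104 counts with the scrambled MO, and the log2 fold change was -2.34 (adjusted p = 0.0100). The others of the 8 beyond the tree relatives had log2 fold changes of -2.27 (g481), -2.14 (g341) and -2.07 (g535). Of the 25 FZNFs called lower, with g336 and g495 themselves counted, 20 had their smallest drop in pair 3. The median log2 pair ratio of the 25 was -2.44 in pair 1, -1.77 in pair 2 and -1.17 in pair 3. No such count was made over all features called lower. The median over all 518 tested FZNFs was also lower in pair 1, at 0.19, than in pairs 2 and 3, at 0.81 and 0.85.

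The number of FZNFs called lower depended on the pairs. It was 48 of 518 tested without pair 3, 17 of 525 without pair 1 and 3 of 521 without pair 2. It fell to 1 of 518 when the block was left out. Calls over all features were not counted under these settings, so whether they moved alike was not tested. The log2 fold change of g336 was -5.72 without pair 3, the pair that held 21 of its 24 FZNF MO counts.

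The nearest FZNF to g336 on the study's neighbour-joining tree is g253, the only one on the same short branch. It was far more abundant in controls, ranking 30th of 684 FZNFs, and it also fell. With the FZNF MO it had 23, 45 and 168 counts, against 546, 455 and 686 counts with the scrambled MO. This was 4.67 ± 4.77 CPM with the FZNF MO and 31.5 ± 7.71 CPM with the scrambled MO (SD, n = 3 each, edgeR log2 fold change -3.13, adjusted p = 0.00095). Its pair ratios were 3.54%, 11.8% and 25.7% in pairs 1, 2 and 3, again closest to the control in pair 3. The call was kept with each pair left out in turn, with adjusted p of 0.0212 at most (without pair 2), and was lost without the block (adjusted p = 0.099). Reads that match close copies equally well are shared out between them by the counting used, so g253 is not an independent measurement of g336. Summed over both genes, the counts were 23, 48 and 189 with the FZNF MO and 588, 586 and 792 with the scrambled MO.

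Of the next 7 relatives of g336, 5 could be tested, and their median log2 fold change was -0.04. By edgeR none was called in either direction, with 1, g317, lower at an unadjusted p under 0.05, and DESeq2 called 0 as well. The FZNF g98 had 555, 618 and 725 counts with the FZNF MO and 503, 610 and 539 with the scrambled MO (log2 fold change 0.22, edgeR adjusted p = 0.51). Values of g316 were 215, 244 and 312 counts with the FZNF MO and 340, 419 and 311 with the scrambled MO (log2 fold change -0.45, adjusted p = 0.28). For g16 and g171 the log2 fold changes were 0.17 and -0.04. The libraries of g317 did not overlap, with 4, 4 and 7 counts with the FZNF MO and 33, 15 and 35 with the scrambled MO, but its log2 fold change of -2.38 did not pass (adjusted p = 0.11). All its FZNF MO levels were under the filter minimum of 0.580 CPM, so it was tested through its scrambled MO libraries. The remaining g707 and g674 were hardly counted, with 5 counts in all for g707 and none for g674.

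Around g495 the relatives were split. Its own short branch holds 7 FZNFs, g152, g725, g216, g657, g141, g728 and g58, of which 5 could be tested. One of them, g216, fell, with 4, 2 and 12 counts with the FZNF MO, against 21, 71 and 61 counts with the scrambled MO (edgeR log2 fold change -3.07, adjusted p = 0.0249). It passed the filter on low counts through its scrambled MO libraries, in which it was high. The closest, g152, had 81, 85 and 168 counts with the FZNF MO and 181, 268 and 177 with the scrambled MO (log2 fold change -0.93, adjusted p = 0.11). Its libraries did not overlap in CPM, but in pair 3 the FZNF MO level was 99.4% of the scrambled MO level. By contrast, g141 had 89, 133 and 223 counts with the FZNF MO and 63, 79 and 75 with the scrambled MO (log2 fold change 0.98, adjusted p = 0.11).

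The FZNF g728 had 127, 134 and 262 counts with the FZNF MO and 137, 155 and 189 with the scrambled MO (log2 fold change 0.08, edgeR adjusted p = 0.90). At g58 the counts were 1, 4 and 12 with the FZNF MO and 26, 3 and 21 with the scrambled MO, so the groups overlapped (log2 fold change -1.43, adjusted p = 0.53). Too few reads were counted for g725, with 7 in all, and none for g657. Just off the branch, g447 fell, with 12, 2 and 10 counts with the FZNF MO, against 93, 40 and 35 counts with the scrambled MO (log2 fold change -2.85, adjusted p = 0.0216). Like g216, it passed the filter through its scrambled MO libraries. Summing g495 with its 7 close relatives, of which g216 alone passed the test, gave 310, 365 and 696 counts with the FZNF MO and 509, 743 and 681 with the scrambled MO, and the log2 fold change of the sum was -0.54. In each library most of these summed counts came from the relatives, so the sum mainly describes them. Whether the division of reads between copies has a part in the value of g495 was not tested.

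The calls of g216 and g447 were less firm than that of g253. Without pair 2 the adjusted p was 0.27 for g216 and 0.165 for g447, and g447 was also lost without pair 1 (0.156). Without the block it was 0.148 for g216 and 0.131 for g447. Among the 6 tested of the 8 nearest relatives of g336, 1 was called lower (16.7%) and none higher, and among the 6 tested of the 8 nearest to g495, 2 were called lower (33.3%) and none higher. Over all tested FZNFs these shares were 4.83% lower and 30.9% higher. The lower shares of the relatives rest on only 1 and 2 genes, and the 2 of g495 passed the filter through the group in which they were high. Of these, g253 and g216 are on the short branches of g336 and g495 and may share reads with them. Their calls are therefore not independent of how g336 and g495 were chosen. By the unadjusted p at 0.05, 0 relatives of g336 and 1 of g495 were higher, and DESeq2 called 0 higher for both genes. Their median log2 fold changes were -0.25 and -1.18, beside 0.62 for all tested FZNFs.

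**Figure D3:**
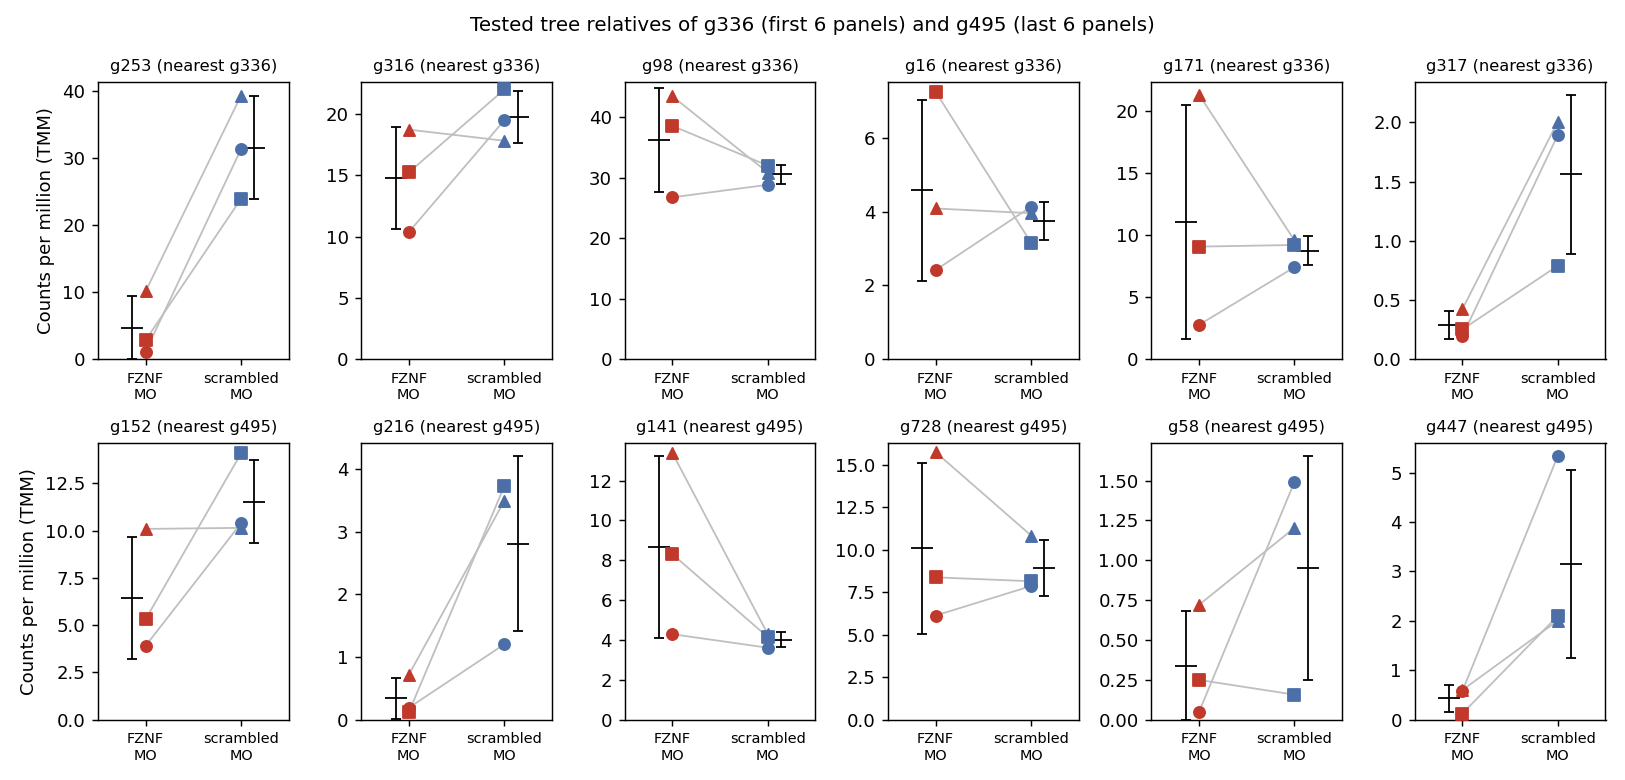
Levels in CPM after TMM scaling of the 12 tested tree relatives, 6 of g336 in the upper row and 6 of g495 in the lower row, in each FZNF MO and scrambled MO library. Circles, squares and triangles are pairs 1, 2 and 3, grey lines join a pair and black bars give the mean ± SD of 3 libraries, cut at 0; g253, g216 and g447 were called lower, and the scale differs between panels.

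The next 4 FZNFs on the tree were looked at after the values of the first 8 were known. They are given with no test. On the side of g495, g37 had 17, 32 and 94 counts with the FZNF MO, against 159, 124 and 176 counts with the scrambled MO (log2 fold change -1.90). The other 3, g205, g365 and g268, had log2 fold changes of -0.11, -1.08 and -2.08. On the side of g336, g264 and g560 had log2 fold changes of -0.54 and -1.41, and g656 and g646 did not pass the filter on low counts.

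FZNF models are numbered, and neighbouring numbers were compared to see whether the fall extended to them. The positions of g336 and g495 themselves were not analysed here. Of the 10 numbers around g336, 8 were tested, and 3 were called higher and 2 lower. Directly below it, g335 fell, with 99, 138 and 138 counts with the FZNF MO, against 408, 331 and 297 counts with the scrambled MO (edgeR log2 fold change -1.44, adjusted p = 0.0108). At g341 there were 7, 22 and 24 counts with the FZNF MO, against 90, 60 and 80 counts with the scrambled MO (log2 fold change -2.14, adjusted p = 0.0448). It is among the FZNFs picked above for low values, so its adjusted p adds no support. It also passed the filter on low counts through its scrambled MO libraries, in which it was high. Between g335 and g341 is g338, which ranked 15th of 684 FZNFs in controls and rose, with 1535, 1511 and 2205 counts with the FZNF MO, against 664, 672 and 759 counts with the scrambled MO (log2 fold change 1.33, adjusted p = 0.000294). The FZNFs g333 and g334 also rose, with log2 fold changes of 3.12 and 1.68. For g333 the counts were 276, 104 and 109 with the FZNF MO, against 6, 5 and 74 with the scrambled MO. Its log2 pair ratio was 4.88 in pair 1 and 4.14 in pair 2, but only 0.61 in pair 3. The FZNF g333 passed the filter through its FZNF MO libraries, in which it was high.

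Around g495, all 10 numbers were tested, of which 3 were called higher and none lower by edgeR. At an unadjusted p under 0.05 there were also 0 lower, and DESeq2 called 0 lower. The highest counts were those of g493, with 2273, 2569 and 2275 with the FZNF MO, against 813, 875 and 664 with the scrambled MO (edgeR log2 fold change 1.63, adjusted p = 7e-05). The others called higher were g496, next to g495, at 1.57 and g499 at 1.67. The remaining 7 ran from -0.76 (g497) to 0.65 (g494). Over the 2 stretches, 6 of 18 tested neighbours were called higher (33.3%) and 2 lower (11.1%), beside 30.9% and 4.83% of all tested FZNFs, with medians of 0.46 around g336 and 0.48 around g495. The 6 include g333 and the 2 include g341, which passed the filter through the group in which they were high. Without the block these counts were 2 and 0, without pair 2 they were 3 and 0, and 1 was lower without pair 1 or with scaling factors taken from Ensembl genes alone.

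**Figure D4:**
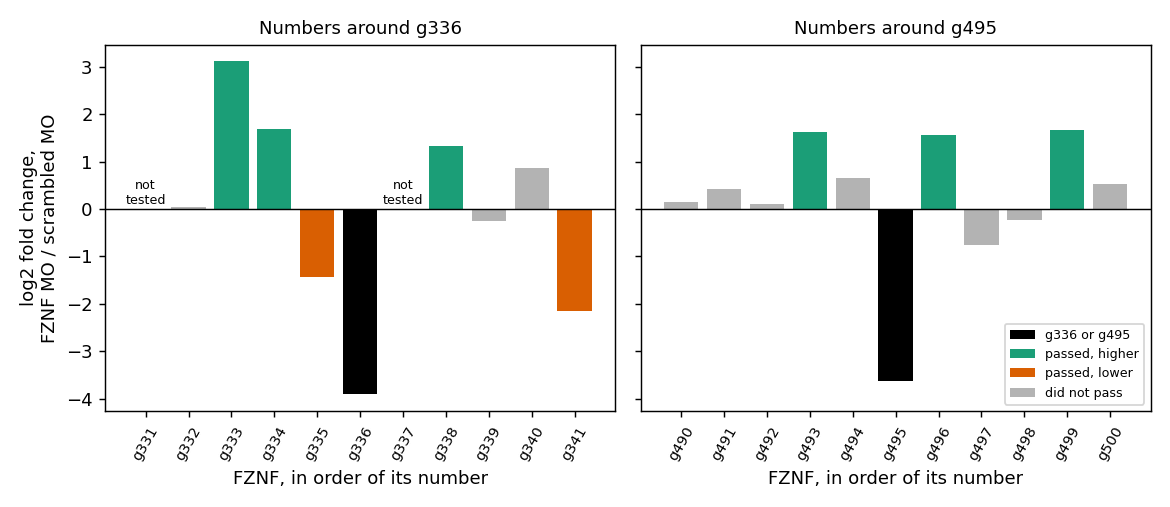
Log2 fold change (FZNF MO over scrambled MO) of the FZNFs numbered within 5 places of g336 and of g495, in order of number. Black bars are g336 (-3.91) and g495 (-3.63), green and orange bars passed the test in the higher and lower direction and grey bars did not pass; 6 neighbours were higher and 2, g335 and g341, were lower.

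The study grouped FZNFs by when they are expressed over the first day of development, and g336 falls in its late class, with g253 and g447, whereas g495 is listed with no class and g216 is in the early class. Classes were read for 520 of the 684 FZNFs, so each class may be incomplete here. Of 181 tested late FZNFs, 66 were called higher (36.5%) and 12 lower (6.63%), and their median log2 fold change was 0.51. Of 250 tested FZNFs with no class, 58 were called higher (23.2%) and 9 lower (3.60%), with a median of 0.54. Early FZNFs had 34 of 66 called higher (51.5%) and 3 lower, with a median of 1.28, and maternal ones 2 of 21 higher and 1 lower. Over all tested FZNFs these shares were 30.9% higher and 4.83% lower, against 3.27% and 2.18% of all tested features. In each class, as over the whole family, more FZNFs were called higher than lower, but the maternal class rests on 2 and 1 genes. The count of late FZNFs called higher was 36 without the block and 35 without pair 2.

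The features most like each gene were found by the mean absolute difference of their 3 log2 pair ratios, over 15610 tested features with a mean of at least 20 scrambled MO counts. Only 3 pairs enter this measure, so it describes likeness and nothing more. Closest to g336 were g253 (0.64) and g495 (0.80), followed by the Ensembl genes ENSDARG00000112884 (0.82), si:dkey-244a7.1 (0.86) and one named PIAS1 (0.90), after the SUMO ligase of mammals. The gene PIAS1 had 0, 2 and 34 counts with the FZNF MO, against 82, 81 and 61 counts with the scrambled MO, with most of its FZNF MO reads in pair 3, as for g336.

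Closest to g495 were gdf3 (0.61), trib1 (0.63), g216 (0.69), si:dkey-244a7.1 (0.70) and ENSDARG00000112884 (0.77). The gene gdf3, which encodes the maternal TGF-beta ligand that pairs with Nodal in mesendoderm induction, had 1278, 337 and 600 counts with the FZNF MO, against 4501, 5657 and 5937 counts with the scrambled MO. The gene trib1, which encodes a Tribbles pseudokinase, had 3, 2 and 3 counts with the FZNF MO, against 35, 42 and 20 counts with the scrambled MO. The features si:dkey-244a7.1 and ENSDARG00000112884 were on both lists. At si:dkey-244a7.1 there were 2, 2 and 12 counts with the FZNF MO, against 37, 49 and 45 counts with the scrambled MO.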

How the data were processed

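Strand-specific poly(A) libraries of whole embryos were sequenced in paired-end mode. The authors assessed read quality with FastQC 0.11.9, aligned to GRCz11 with STAR 2.7.5a, keeping multimapping reads, and counted with TEcount, which shares such reads between features. The deposited values are raw counts for Ensembl genes, FZNF models and repeats. The counting strand and the Ensembl version were not given in the sources used, so antisense reads could not be told apart.

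Counts were analysed in edgeR 4.0.16 (R 4.3.3) with filterByExpr, TMM factors and the quasi-likelihood test with Benjamini-Hochberg adjustment over 17804 features. The methods describe paired injections, so replicate number was the block. Deviations from group means correlated at r = 0.451, 0.327 and 0.244 within pairs, and from -0.315 to 0.0583 between them. Taking deviations from the group mean itself lowers the values between pairs, so those are not a separate sign of pairing. No 2 libraries agreed within sampling noise (lowest chi-square of 22.5 per degree of freedom). Embryos were pooled per library. With the block, the p-values therefore weigh the difference between groups against its variation across pairs, which edgeR estimates partly from the other features.

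The rule for named genes took g336 and g495, the 8 nearest FZNFs to each on the study's tree, the 10 non-overlapping lower FZNFs of lowest log2 fold change with a mean of at least 20 counts, the 2 highest and 2 lowest FZNFs, and the 5 features most like each gene; tree relatives, timing classes and number neighbours followed the study's annotation. These members and lists were chosen with earlier results of these data known. Alternatives were no block, RLE factors, factors from Ensembl genes, no filter, a stricter filter (50 counts in 3 libraries), DESeq2 1.42.0, each pair left out, other prior counts, library size alone, and sums with close relatives. On simulated counts for this comparison (17303 features), 48 of 50 FZNFs lowered by 3 on the log2 scale passed the filter. The fit recovered 97.9% of these 48 and 84.0% of 50 lowered by 2. It also called 7 features that had not been changed. The simulated counts held no difference between pairs, so they do not cover how the calls depended on the pairs. The changed FZNFs were drawn at random from those passing the filter, so the rates do not describe genes with as few counts as g336 and g495.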

Additional observations from a re-analysis of the deposited data

How the results depend on the processing

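The log2 fold changes of g336 and g495 were negative under every alternative that gave one. That sign was largely set by choosing these genes as lower with the FZNF MO, so it supports nothing. That of g336 ran from -5.72 to -3.34 when a pair was left out, was -5.28 as the mean of pair differences with the smallest prior count tried, which weighs the library with no read heavily, and had no value under the stricter filter, which it did not pass. That of g495 ran from -4.00 to -3.25 with a pair left out. The sum of g495 with its close relatives, made mostly of counts of those relatives, was at -0.54. The sum of g336 with g253, made mostly of g253 counts, was at -3.26. Without the replicate block, 76 of 518 tested FZNFs were called higher and 1 lower. Of the close relatives 0 of g336 and 0 of g495 were called lower, since g253 and g216 no longer passed. Without the block, g336 itself was at -3.42 and g495 at -3.59. With a pair left out, from 518 to 525 FZNFs were tested. Those called higher ran from 78 to 189 and lower from 3 to 48, and close relatives of g495 from 0 to 1 higher and from 0 to 2 lower. With no count filter 42 of 653 tested FZNFs were called lower, beside 25 of 518 in the main fit, and 1 close relative of g495 was higher and 2 lower. Under the stricter filter 22 of 407 tested FZNFs were called lower, but 0 close relatives of g495 were, because g216 was not tested. The causes of the other moves were not tested. DESeq2 called 184 of 518 FZNFs higher and 31 lower. The shares over all features were not counted under these alternatives. The FZNF MO counts of g336 and g495, from 0 to 21, limit the precision of each pair ratio.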
